A study of Amphimedon queenslandica with 43 samples.

Results

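This account concerns 76 transcript models of the sponge Amphimedon queenslandica whose level was lower at 9 than at 1 hour post emergence (hpe) under each of 3 light regimes. They were chosen from 47411 models by their measured values. CPM was the count over the larva's total count, times 1000000, and the age change A is the log2 ratio of a regime's group medians of CPM + 1, 9 over 1 hpe. A member had an Aqu2.1 identifier, A at or below -0.8 in constant light, constant dark and day-night, a highest group median of at least 20 CPM, a count above 0 in all 21 larvae at 1 hpe, and a mean raw count below 2500. All criteria but the age change were met by 7196 models, so the members were 1.06% of them. That the members were lower at 9 hpe is therefore a choice and not a result.

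The study asked how light around the larva bears on its passage to the stage at which it can settle. Larvae, for which the labels name no strain or genetic change, were collected in the 30 minutes from 11 am and were in their regime by 0.5 hpe, in seawater passed through a 0.22 μm filter. Constant light came from a full-spectrum fluorescent tube, constant dark was a neutral density filter that still let 6.6% of daylight through, and day-night was the natural cycle. At 9 hpe, held to be the competent age, there were 7 constant-light, 7 constant-dark and 8 day-night larvae, and at 1 hpe, held to be before competence, 7 of each. Each of the 43 larvae was sequenced whole and alone by CEL-Seq2, which counts the 3' ends of polyadenylated transcripts. Neither parentage nor batch is labelled, so the tests weigh differences against the spread among single larvae, which may share parents.

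Sponge larvae of this species are brooded, leave the adult by day and swim for some hours before they can respond to cues for settlement and metamorphosis. They avoid light, which a ring of pigmented, ciliated cells at the posterior pole is known to sense. The files pair no identifier with a gene name, and 0 identifiers matched the reference gene table, so no role and no sequence is given for any member and none could be grouped by function. Whole larvae were measured, so fewer cells of a type and less RNA per cell cannot be told apart, and, with 1 collection hour, the effects of age and of the hour of the day cannot be told apart.

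Total counts per larva ran from 1890954 to 3927366, so 20 CPM stood for at least 37.8 counts. On the second principal component of all other models, 8 larvae stood apart, 4 of the 7 constant-light larvae at 9 hpe, 1 constant-light larva at 1 hpe and 3 constant-dark larvae at 1 hpe. None was a day-night larva, so the counts of members called in comparisons of constant light are given with and without these 8.

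Together the 76 models took 0.476% to 0.753% of a larva's counts in constant light at 9 hpe, against 1.21% to 1.60% in constant light at 1 hpe. In constant dark they took 0.429% to 0.669% at 9 hpe and 1.23% to 1.72% at 1 hpe. In day-night larvae they took 0.281% to 0.657% at 9 hpe and 1.25% to 1.84% at 1 hpe. The ages did not overlap in any regime, which the choice of members brings about. The regimes overlapped with each other at both ages.

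**Figure D1:**
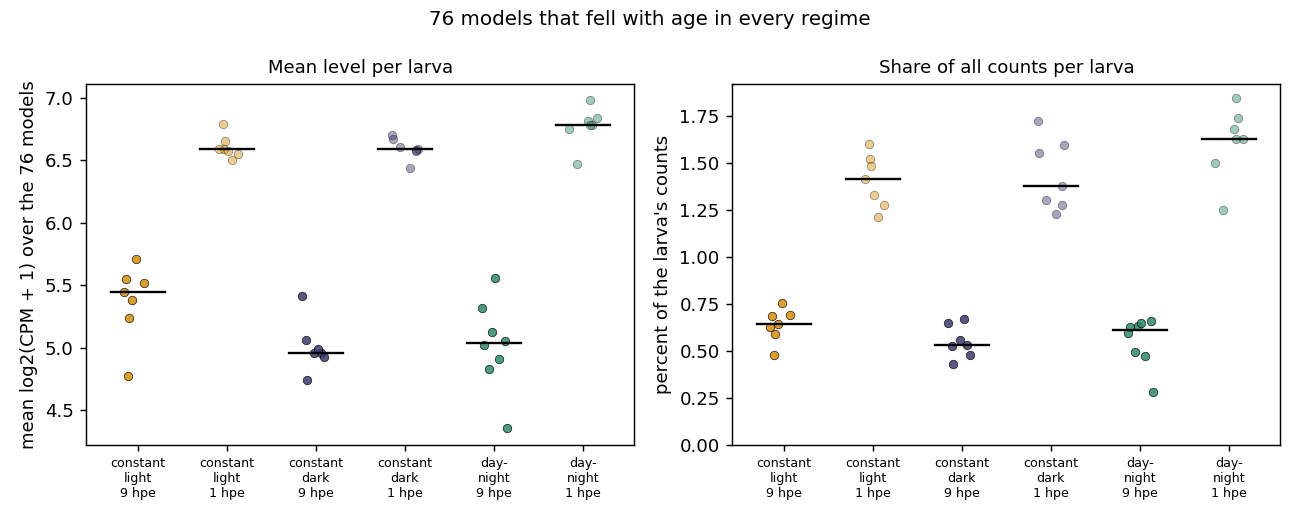
Each point is 1 larva, by regime and age, and lines are group medians. The left panel plots the mean log2(CPM + 1) over the 76 models, the right panel their percentage of the larva's counts. Constant-light larvae at 9 hpe have a median of 5.45 on the left scale, against 4.96 in constant dark and 5.04 in day-night at that age.

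The members ranged widely in level. The highest of the 6 group medians was 20.1 CPM for the lowest member and 966 CPM for the highest, with a median of 123 CPM. It was the day-night group at 1 hpe for 38 members, the constant-light group at 1 hpe for 28 and the constant-dark group at 1 hpe for 10. The rule asked for a count in all 21 larvae at 1 hpe, and 74 of the 76 were also counted in all 22 larvae at 9 hpe. No share over the other models is given beside this. At 9 hpe only 2 members had a median under 5 CPM in every regime, while 24 had a median of at least 50 CPM in every regime.

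The sign of A was fixed by the rule, and its size varied among members and regimes. A ran from -3.85 to -0.80 in constant light with a median of -1.085. In constant dark it ran from -5.02 to -0.80 with a median of -1.49, and in day-night from -5.03 to -0.86 with a median of -1.46. A was at or below -2 for 4 members in constant light, 19 in constant dark and 22 in day-night. It was the least negative of the 3 in constant light for 48 members, in constant dark for 17 and in day-night for 11. In 17 members A in constant light was at least 1 above A in day-night, and in 3 members the reverse held. These differences are made of the values that chose the members and carry no test.

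**Figure D2:**
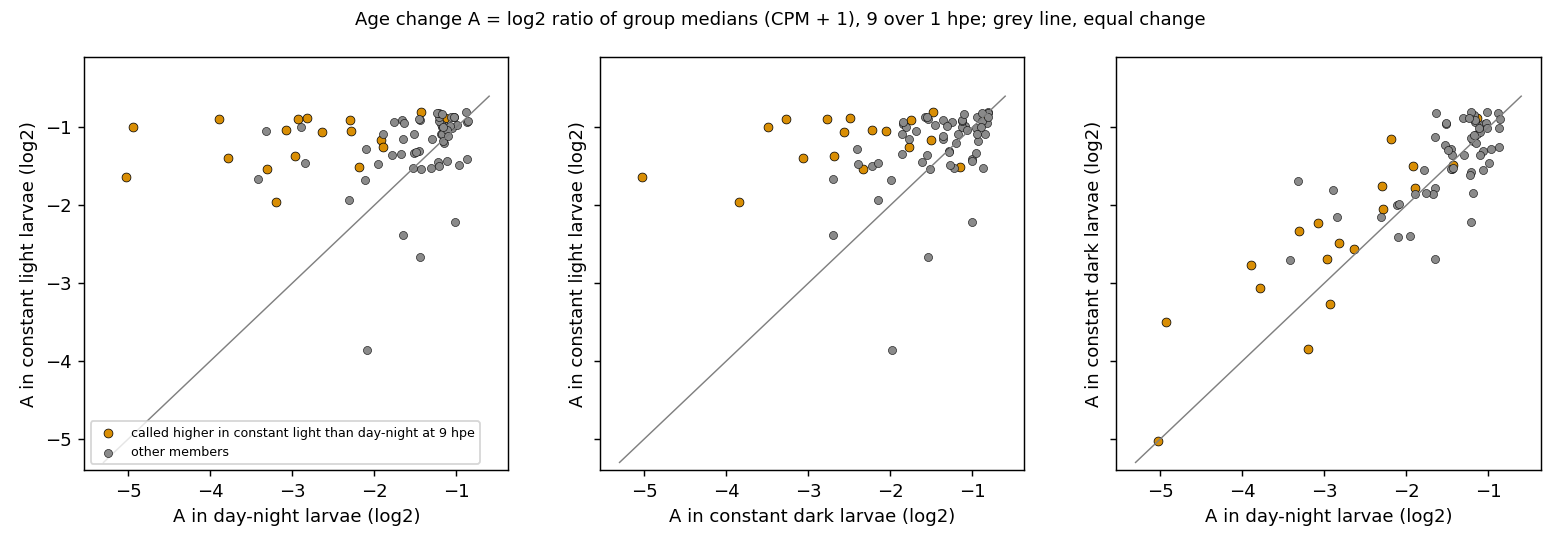
Each point is 1 of the 76 models, placed by its age change A (log2) in a pair of regimes, and the grey line marks equal change. Orange points are the 18 members called higher in constant light than in day-night at 9 hpe. In constant light 60 of the 76 members lie above the line against day-night and 53 against constant dark, and the rest lie below it. Over all 76 the median difference in A is 0.34 against day-night and 0.26 against constant dark.

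Members and non-members met closely at the threshold. The 3 members nearest to it had a highest A over the regimes of -0.8056, -0.8043 and -0.8005, and the 3 nearest models left out had -0.7967, -0.7941 and -0.7728. Within 0.1 of the threshold there were 21 members inside and 39 models outside. A further 44 models missed only the level, 7 only the detection at 1 hpe, 3 only the count limit and 3 only the identifier.

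Most members also passed edgeR's quasi-likelihood test for the contrast that chose them, fitted over 14188 models (adjusted p below 0.05, Benjamini-Hochberg). At 9 against 1 hpe, 61 of 76 were called lower in constant light, where 3.48% of all tested models were, 70 in constant dark, where 10.6% were, and 72 in day-night, where 12.1% were. Every larva at 9 hpe lay below every larva at 1 hpe for 27 members in constant light, 41 in constant dark and 41 in day-night, against 0.733%, 1.64% and 1.97% of all tested models. This held in all 3 regimes for 17 members and in 0 regimes for 21. For 9 members all 22 larvae at 9 hpe lay below all 21 at 1 hpe. Without the 8 larvae that stood apart, 20 were called in constant light, where 3 larvae at 9 hpe were then left. Over all tested models 494 of 14188 were called lower in constant light with all larvae, and 126 of 15540 without the 8. Since the rule used these contrasts, the counts only describe the members.

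By the age change A of group medians, Aqu2.1.37300_001 was the lowest member in both constant dark and day-night. The fold changes between ages of this and the next 4 models describe members chosen on that contrast and carry no test. In constant light it stood at 56.8 to 269 CPM at 9 hpe (median 144) and 369 to 592 CPM at 1 hpe (median 450). In constant dark it stood at 3.34 to 115 CPM at 9 hpe (median 8.36) and 136 to 583 CPM at 1 hpe (median 303). In day-night it stood at 7.89 to 75.6 CPM at 9 hpe (median 11.0) and 168 to 658 CPM at 1 hpe (median 393). The ages were separate in all regimes, and at 9 hpe the lowest constant-light larva lay below only 1 constant-dark and 1 day-night larva. The fitted log2 fold change, 9 over 1 hpe, was -3.88 in constant dark with a standard error of 0.60, and -4.17 in day-night with a standard error of 0.58. Without constant-dark replicate 4 at 9 hpe, the larva at 115 CPM, the first of these was -4.99.

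Aqu2.1.28330_001 had the second lowest A in day-night, although its fitted fold change there was the steeper of the pair. It stood at 1.66 to 24.9 CPM in day-night larvae at 9 hpe (median 2.78) and 32.5 to 168 CPM at 1 hpe (median 115). Its constant-light larvae at 9 hpe ran from 2.99 to 75.5 CPM (median 50.1) and those at 1 hpe from 19.4 to 230 CPM (median 101). Its constant-dark larvae at 9 hpe ran from 3.34 to 60.3 CPM (median 7.75) and those at 1 hpe from 30.9 to 248 CPM (median 97.6). The ages were separate in day-night larvae alone and overlapped in both constant regimes. The day-night log2 fold change was -4.47 with a standard error of 0.69, and -5.36 without day-night replicate 6 at 9 hpe, which held the 24.9 CPM.

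Aqu2.1.36489_001 had the second lowest A in constant dark. There it stood at 4.21 to 17.8 CPM at 9 hpe (median 6.05) and 43.0 to 165 CPM at 1 hpe (median 100.5), with no overlap. The log2 fold change was -3.86 with a standard error of 0.43. Day-night larvae held 3.89 to 18.4 CPM at 9 hpe and 49.9 to 104 CPM at 1 hpe, and constant-light larvae 4.35 to 77.1 CPM at 9 hpe and 71.6 to 146 CPM at 1 hpe. In constant light the highest larvae at 9 hpe reached into the range at 1 hpe.

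The pair with the lowest A in constant light had another pattern. Aqu2.1.35559_001 stood at 15.4 to 26.5 CPM in constant light at 9 hpe (median 18.8) and 52.0 to 480 CPM at 1 hpe (median 285). Its log2 fold change was -3.87 with a standard error of 0.60 and -4.03 without the 8 larvae that stood apart. Its levels at 9 hpe were 14.9 to 40.1 CPM in constant-dark larvae and 17.1 to 42.3 CPM in day-night larvae, close to the constant-light larvae. At 1 hpe all regimes were widely spread, constant dark at 19.4 to 641 CPM and day-night at 47.1 to 489 CPM. Aqu2.1.03834_001 stood at 3.96 to 29.2 CPM in constant light at 9 hpe (median 7.32) and 27.9 to 64.6 CPM at 1 hpe (median 51.7), so that 1 larva at 9 hpe reached into the lower end of the range at 1 hpe. Its log2 fold change was -2.34 with a standard error of 0.56, and -2.02 without the 8 larvae.

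**Figure D3:**
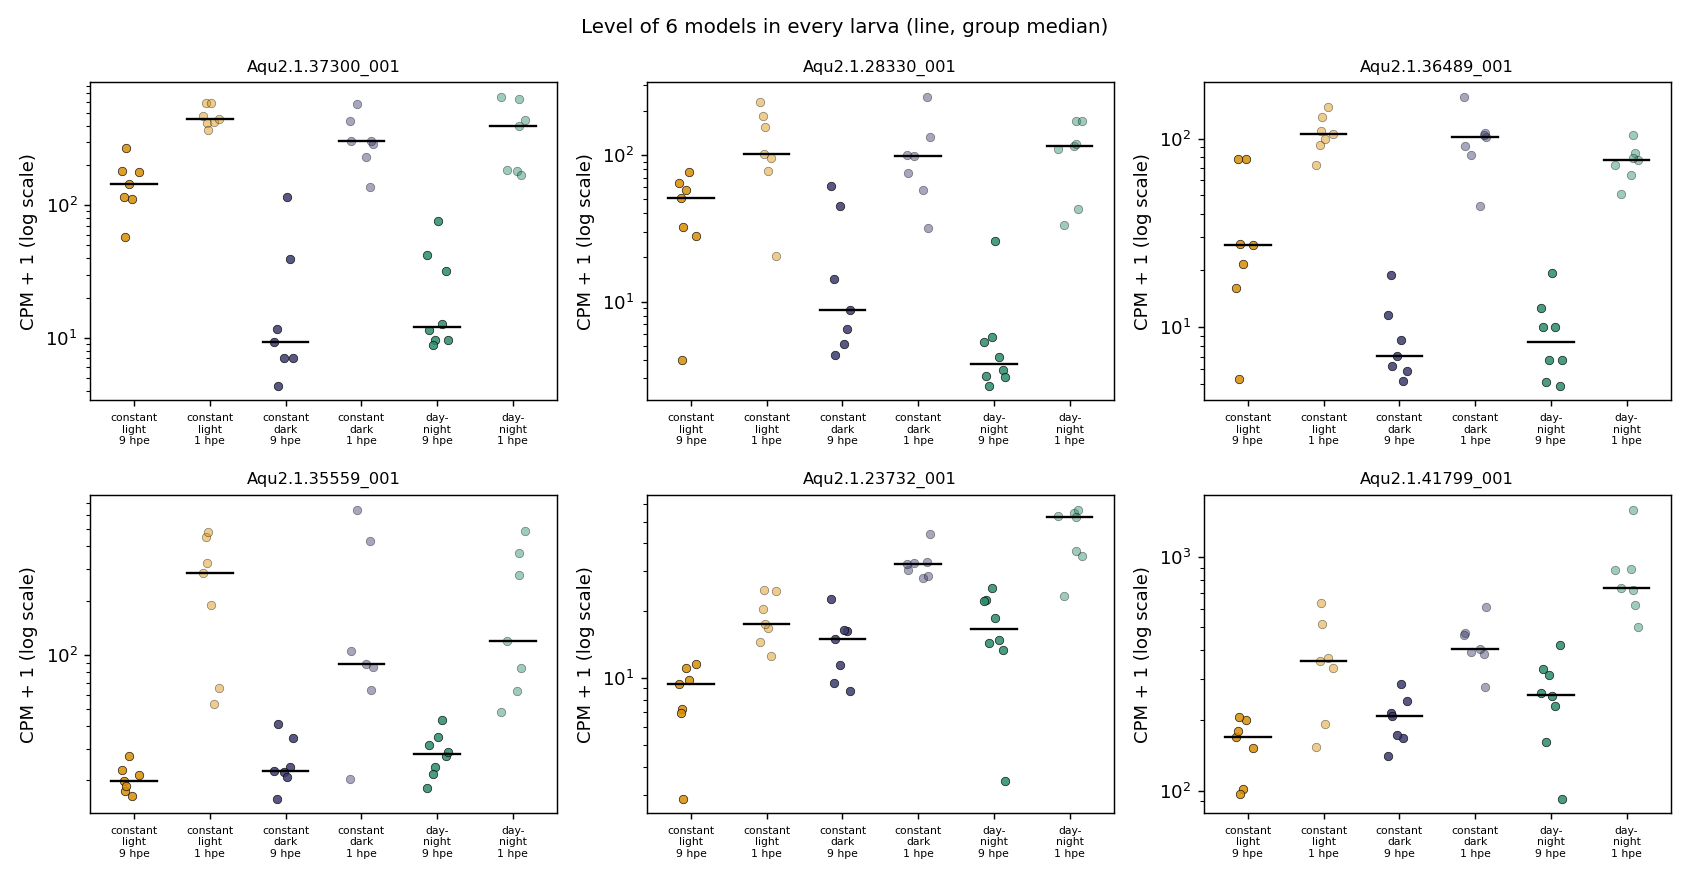
Each point is 1 larva and each line a group median, in CPM + 1 on a log scale, for 6 named models. In the top row 3 models keep higher medians in constant light at 9 hpe (144, 50.1 and 26.3 CPM) than in the other regimes at that age, while Aqu2.1.35559_001 has similar medians in all 3 regimes at 9 hpe and the other 2 have lower medians in constant light than in day-night at both ages.

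The rule set no order between regimes at one age, but it used the group medians of the same larvae at both ages. The comparisons of regimes are therefore not independent of it. It used column totals, and the tests TMM scaling, which shifted the median A over the 7196 models by -0.11 in constant light, -0.25 in constant dark and -0.17 in day-night. The 7120 other models given beside the members did not fall that far in every regime. The part of the rule in these calls was not tested. At 9 hpe 21 of the 76 members differed between constant-light and day-night larvae, where 4.85% of all tested models did. Of these, 18 were higher in constant light, where 2.88% of all tested models and 4.72% of the 7120 other models that met the criteria but the age change were called higher. The other 3 were lower, where 1.97% of all tested models were. The median log2 fold change over the 76 was 0.31, with 45 above 0, and 0.23 without the 8 larvae, and over the 7120 it was 0.03. The 18 ran from 0.51 to 2.97 with a median of 1.35. For 0 members did the larvae of the regimes not overlap, against 1.25% of all tested models. Without constant-light replicate 5, a larva picked after its values were seen, the regimes did not overlap for 9 of the 18. The share over all tested models without that larva is not given. The 21 became 12 with limma voom and 12 without the 8 larvae that stood apart, all 12 of them higher in constant light each time. With no count filter 14 were called, 13 of them higher. With only these groups in the fit, and with a term for clusters of alike larvae, 14 were called, all higher. Over all tested models the calls went from 688 of 14188 to 674 of 14188 with limma voom and 246 of 15540 without the 8 larvae. They were 417 of 38514 with no count filter, 467 of 11665 with only these groups and 382 of 14188 with the cluster term. Total counts at 9 hpe had a median of 3280489 in constant light and 2427294 in day-night, and the part of depth in these calls was not tested.

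Of the 18, Aqu2.1.28330_001 differed most. Its larvae in constant light and day-night, given above, had medians of 50.1 and 2.78 CPM, and 6 of the 7 constant-light larvae lay above all 8 day-night larvae. Its log2 fold change was 2.97 with a standard error of 0.66 (edgeR adjusted p = 0.00356, 0.107 with limma voom, 1.03e-06 to 0.107 over the alternatives). Without day-night replicate 6 it was 3.87, and without the 8 larvae that stood apart 3.40. Aqu2.1.37300_001 followed with medians of 144 and 11.0 CPM and a log2 fold change of 2.67 with a standard error of 0.55 (adjusted p = 0.00155), which without the 8 larvae was 2.29 (adjusted p = 0.0910).

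The 2 named members called lower in constant light at 9 hpe had medians under 20 CPM in both regimes. Aqu2.1.03934_001 stood at 1.88 to 8.05 CPM in constant light (median 4.21) and 1.63 to 13.7 CPM in day-night (median 10.02). Day-night replicate 5 held the 1.63 CPM, and the other 7 day-night larvae, from 9.74 CPM up, lay above every constant-light larva. Its log2 fold change was -1.13 with a standard error of 0.28 (edgeR adjusted p = 0.0110, 0.0586 with limma voom, 0.0849 with only these groups in the fit, 0.0904 with the cluster term and 0.0643 without the 8 larvae). Aqu2.1.23732_001 stood at 1.88 to 10.5 CPM in constant light (median 8.34) and 2.45 to 24.3 CPM in day-night (median 15.6), a log2 fold change of -1.07 with a standard error of 0.29 (adjusted p = 0.0232). That call was lost without constant-light replicate 7 (adjusted p = 0.0635), day-night replicate 1 (0.0520) or day-night replicate 4 (0.0565), with no count filter (0.0595), limma voom (0.111), only these groups in the fit (0.134) and the cluster term (0.103), and without the 8 larvae (0.295).

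When constant light was set against constant dark at 9 hpe, 13 members were called, all higher in constant light, where 0.684% of all tested models were higher and 0.818% differed either way. Of the 7120 other models 0.955% were higher. The median log2 fold change was 0.35 over the 76, with 53 above 0, and 0.39 without the 8 larvae, and 0.03 over the 7120. The 13 ran from 0.81 to 2.62 with a median of 1.51. For 3 members every constant-light larva lay above every constant-dark larva, against 0.247% of all tested models. The 13 became 22 without constant-light replicate 5, 8 with limma voom, 7 without the 8 larvae that stood apart, 6 with a term for clusters of alike larvae and 3 with only these groups in the fit. Over all tested models the calls were 116 of 14188. In the same order they became 199 of 14471, 98 of 14188, 35 of 15540, 38 of 14188 and 28 of 11441.

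Aqu2.1.37300_001 led this comparison as well, with a median of 144 CPM under constant light, against 8.36 CPM under constant dark, and a log2 fold change of 2.62 with a standard error of 0.58 (edgeR adjusted p = 0.0125). It was 3.73 without constant-dark replicate 4. The call was lost without the 8 larvae (2.25, adjusted p = 0.238), with only these groups in the fit (0.162) and with the cluster term (0.192). Aqu2.1.36489_001 had medians of 26.3 and 6.05 CPM and a log2 fold change of 2.20 with a standard error of 0.41 (adjusted p = 0.00233), and 2.88 without the 8 larvae. This call was lost with limma voom (adjusted p = 0.111), with only these groups in the fit (0.145) and with the cluster term (0.258). Its lowest constant-light larvae held 4.35 and 15.2 CPM, both within the constant-dark range.

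The 18 and the 13 were called with the same constant-light larvae. Over the 18, the median of the group medians at 9 hpe was 91.6 CPM under constant light, 34.3 CPM under constant dark and 22.01 CPM under day-night, and at 1 hpe it was 192, 179 and 210 CPM in that order of regimes. Over the 13, it was 130.004 CPM under constant light, 47.0 CPM under constant dark and 41.5 CPM under day-night at 9 hpe, and 246, 247 and 228 CPM at 1 hpe. The values at 9 hpe chose these sets. None of the 18 or the 13 was called between any regimes at 1 hpe. At that age 0.874% of all tested models were called between constant light and day-night. The share was 0.0141% between constant dark and day-night and 0.148% between constant light and constant dark. With shares that low, 0 calls in sets of this size say little about the regimes at 1 hpe.

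**Figure D4:**
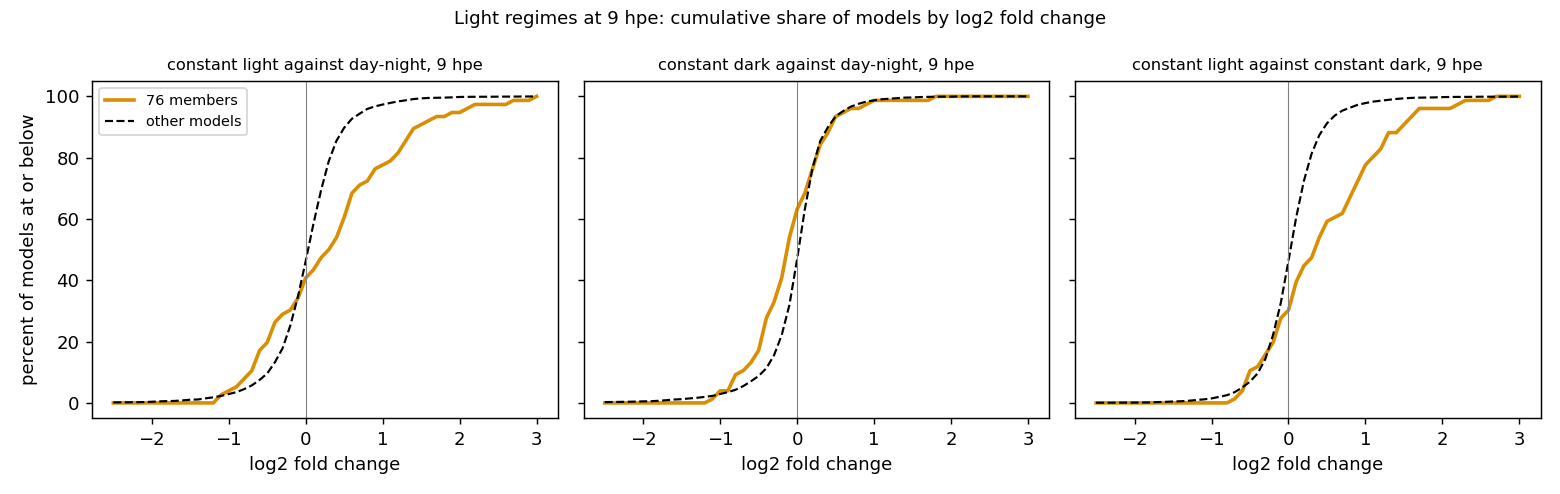
Percentage of models at or below each log2 fold change between regimes at 9 hpe, for the 76 members (solid) and the 7120 other models that met the criteria but the age change (dashed). In both comparisons of constant light the curves cross. Against day-night 17.1% of the members and 7.49% of the others lie at or below -0.6, while 77.6% of the members and 97.3% of the others lie at or below 1. Against constant dark 10.5% of the members and 6.95% of the others lie at or below -0.5, while 77.6% and 97.8% lie at or below 1.

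In constant dark against day-night at 9 hpe a single member was called, lower in constant dark, where 1.40% of all tested models were lower and 1.71% differed either way. Aqu2.1.42015_001 stood at 10.8 to 20.2 CPM in constant dark (median 12.4) and 14.1 to 87.0 CPM in day-night (median 23.2), so the groups overlapped. Its log2 fold change was -1.16 with a standard error of 0.31 (edgeR adjusted p = 0.0430, 0.0145 to 0.369 over the alternatives). Leaving out 1 larva ended the call for constant-dark replicates 2, 3, 4, 5, 6 and 7 and for day-night replicates 2, 4, 5 and 6, with an adjusted p of 0.198 without replicate 6, the larva at 87.0 CPM. Without that larva a different member was called, higher in constant dark. The median log2 fold change over the 76 was -0.13. An unadjusted edgeR p below 0.05 was found for 11 of the 76 and for 1508 of all 14188 tested models.

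At 1 hpe few members differed between regimes. Between constant light and day-night 4 were called, all lower in constant light, where 0.733% of all tested models were lower, 0.983% of the 7120 were, and 0.874% of all tested differed either way. Aqu2.1.23732_001 stood at 11.5 to 23.8 CPM in constant light (median 16.5) and 22.2 to 55.7 CPM in day-night (median 51.4), with only the lowest day-night larva within the constant-light range. Its log2 fold change was -1.37 with a standard error of 0.29 (edgeR adjusted p = 0.0113). Constant-dark larvae at that age held 26.99 to 43.0 CPM. Aqu2.1.41799_001 stood at 153 to 636 CPM in constant light (median 359) and 502 to 1593 CPM in day-night (median 737), a log2 fold change of -1.30 with a standard error of 0.27 (adjusted p = 0.00899). Without the 8 larvae 4 members were called, and the fold changes were -1.44 for Aqu2.1.23732_001 and -1.26 for Aqu2.1.41799_001. With a term for clusters of alike larvae 0 of the 76 were called, and the adjusted p was 0.116 for Aqu2.1.23732_001 and 0.0958 for Aqu2.1.41799_001, which was 0.0894 with only these groups in the fit. Over all tested models the calls went from 124 to 26 with the cluster term.

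The other comparisons at 1 hpe called 0 members. Between constant dark and day-night 0 of 76 were called by edgeR, where 0.0141% of all tested models were, and DESeq2 called 1 and limma voom 0. An unadjusted edgeR p below 0.05 was found for 11 of the 76 and for 1170 of all 14188 tested models. Between constant light and constant dark 0 were called, where 0.148% of all tested models were, and DESeq2, limma voom and the fit without the 8 larvae called 0. Here 8 of the 76 and 1688 of all 14188 tested models had an unadjusted edgeR p below 0.05. The median log2 fold change over the 76 was -0.15 in constant light against day-night, -0.11 in constant dark against day-night and -0.07 in constant light against constant dark. Over the 7120 these were 0.05, 0.01 and 0.01.

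The order of the group medians was counted for each model. At 9 hpe the constant-light median was the highest of the 3 for 40 members (52.6%), against 33.4% of the 7120 others. The constant-dark median was the highest for 7 members (9.21%), against 40.5% of the others. The day-night median was the highest for 29 members (38.2%), against 26.1%. At 1 hpe the day-night median was the highest for 38 of the 76, against 23.8% of the others. These shares carry no test.

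Single larvae departed from their group across many members. Constant-light replicate 5 at 9 hpe was the lowest of its 7 larvae for 41 of the 76, where an even spread would give 10.9, and for 17 of the 18 called higher than in day-night. The mean log2(CPM + 1) of the 18 was 4.63 in that larva and 6.25 to 6.48 in the other 6 constant-light larvae. In constant-dark larvae at 9 hpe the mean of the 18 ran from 4.27 to 5.59, and in day-night larvae from 4.10 to 5.90, so that the other 6 constant-light larvae lay above all larvae of both regimes and replicate 5 among them. The 18 were chosen with the constant-light and day-night larvae, so this describes them. On the first principal component of all other models, which held 11.4% of the variance, replicate 5 stood at 22.7, within the 0.821 to 24.2 of its group, and day-night larvae at 9 hpe at 28.6 to 43.9. Replicate 5 was also 1 of the 8 larvae that stood apart, with replicates 2, 3 and 7 of its group.

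Among day-night larvae at 9 hpe, replicate 5 was the lowest for 28 members and replicate 6 the highest for 33, where an even spread would give 9.50. Their mean log2(CPM + 1) over the 76 was 4.36 and 5.56, at either end of the 8 larvae. The title of day-night replicate 5 ends in a number outside the run of its group, and what that number marks is not labelled. Among constant-dark larvae at 9 hpe replicate 1 was the highest for 30 members, and among day-night larvae at 1 hpe replicate 7 was the lowest for 32.

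**Figure D5:**
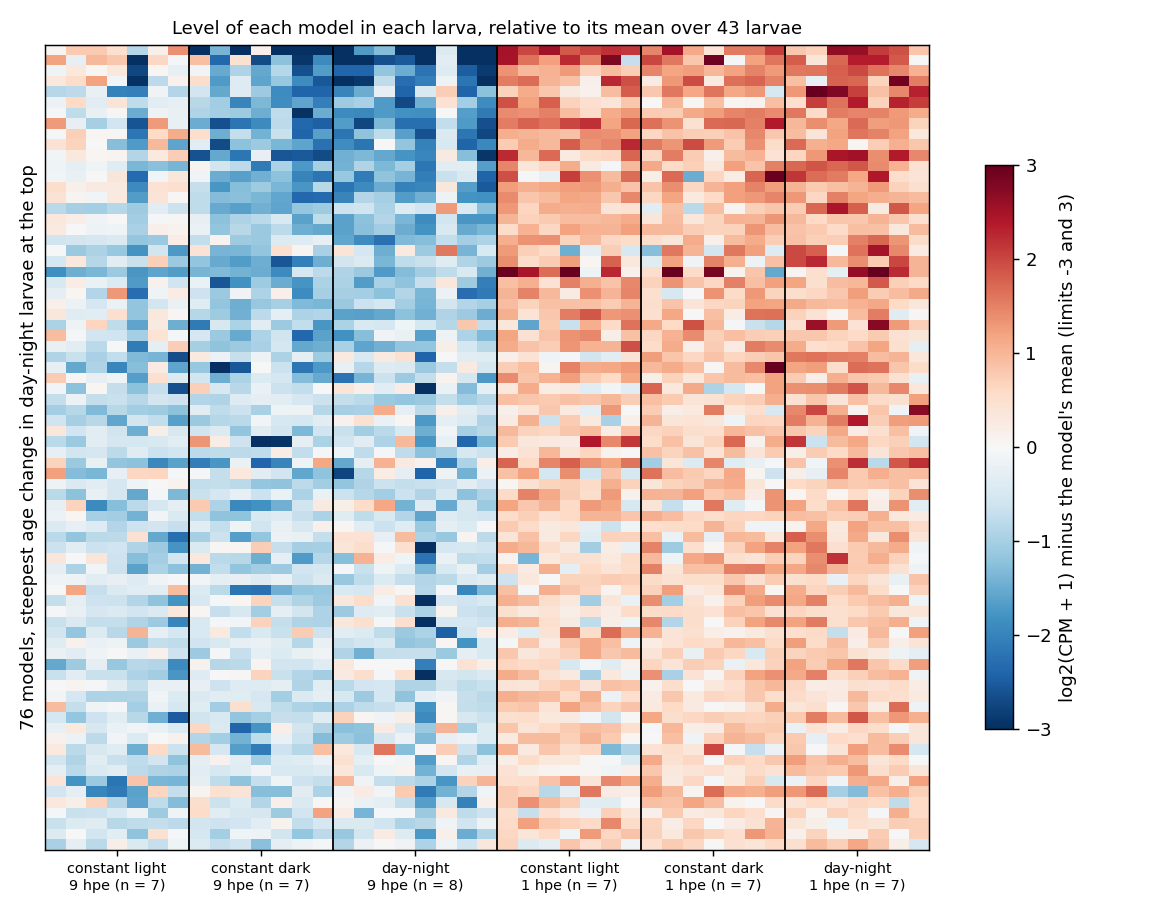
Rows are the 76 models, ordered by their day-night age change with the steepest at the top. Columns are the 43 larvae by group, and colour is log2(CPM + 1) minus the model's mean over all larvae. In the upper rows most constant-light larvae at 9 hpe are paler than the other larvae of that age, and the fifth of the 7 is darker. It was the lowest for 41 members.

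After removing group means, the correlation between a pair of members across the 43 larvae had a median of 0.11 and 5th and 95th percentiles of -0.24 and 0.57. Between pairs of the 7120 others the median was 0.02 and the percentiles were -0.29 and 0.33. The larvae are shared by all pairs, so these values are a description.

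Some members had neighbouring identifiers, which the rule did not use. There were 5 pairs of members with consecutive numbers in their identifiers, which involved 9 of the 76. Members had 68 neighbours in number that met the criteria but the age change, where a model next to more than 1 member counts for each. Of these neighbours 14.7% were members, against 1.06% of all models that met those criteria. In 1 run of 3 consecutive numbers all 3 were members. Within groups the correlation across larvae in the 5 pairs ran from 0.27 to 0.51, and the pair that begins with Aqu2.1.37300_001 had 0.41. What the numbering stands for is not given in the sources used here, and models counted by 3' tags may share reads with an overlapping or near-identical model. Members far apart in number could also track each other. Aqu2.1.00030_001, Aqu2.1.00441_001, Aqu2.1.00982_001 and Aqu2.1.09853_001 stood at 1245, 1052, 1242 and 1021 CPM in constant-dark replicate 1 at 1 hpe. In replicate 2 of that group they stood at 246, 210, 232 and 173 CPM. In day-night replicate 5 at 9 hpe they stood at 44.5, 41.7, 47.4 and 28.6 CPM. Whether they share reads was not tested, so the 76 may not all be separate.

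The direction that the rule was turned to affects how many models it finds. The mirrored rule, with A at or above 0.8 in every regime and a count in all larvae at 9 hpe, gave 169 models, 2.35% of those that could meet it. With TMM scaling in place of column totals the median A over the 7196 models shifted by -0.11 in constant light, -0.25 in constant dark and -0.17 in day-night. The rule then gave 135 falling and 90 rising models, so which of the lists was longer turned with the scaling. All 76 members were among the 135, and their median A became -1.22 in constant light, -1.71 in constant dark and -1.66 in day-night.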

How the data were processed

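Whole larvae were sequenced by CEL-Seq2 after TRIzol isolation, per the labels' protocols. The values used were raw counts, 1 per transcript model and larva, as the authors deposited them. Per the file name, spike-in and bacterial features had been left out. No source used here names the aligner, counting tool, genome build or annotation. A deposited table of normalized values was not used. Groups came from sample titles.

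CPM was count over column total. Tests used edgeR 4.0.16 in R 4.3.3 on the counts as deposited, with filterByExpr by group, TMM scaling, robust dispersions and 1 quasi-likelihood model with a mean per group over all 43 larvae. This left 14188 models, among them all 76 members. SE is the fold change over the square root of F. P-values were adjusted by Benjamini-Hochberg over all models tested, with a threshold of 0.05. On simulated data with 200 changed models, constant light against day-night at 9 hpe recovered 37% of 2-fold and 67% of 4-fold changes among 14188 models, with 8 unchanged models called.

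The members and lists were chosen with earlier results of these data known. Named members are the 2 with the lowest A in each regime and at most 2 higher and 2 lower called members in each comparison of regimes at one age. Alternatives were RLE scaling, no count filter, DESeq2 1.42.0, limma 3.58.1 voom, only the 2 groups compared, a replicate block, a term for clusters of alike larvae (13 clusters holding 33 larvae), the 8 larvae left out, and each larva left out in turn. In the cluster term the larvae that fell in no cluster shared a further level, although they were not alike. The difference of age change between regimes is made of the values that chose the members and was not tested.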

Additional observations from a re-analysis of the deposited data

Results flagged for a closer look

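Of 72 groups of larvae examined (the members' mean and share, the mean of the 18 members called higher in constant light than day-night, and each of the named models), 9 held a larva far from the others of its group. The limit used is one that about 1 in 20 groups of normally distributed values would pass by chance. Of the 9, 8 were in CPM, a skewed linear scale on which that rate was not tested, and 7 were at the high end.

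The mean log2(CPM + 1) of the 18 members was 4.63 in constant-light replicate 5 at 9 hpe, and the nearest of the other constant-light larvae was at 6.25. The 18 were called with this larva in the fit. At 9 hpe, Aqu2.1.28330_001 stood at 24.9 CPM in day-night replicate 6 with the next larva at 4.76 CPM, and Aqu2.1.42015_001 at 87.0 CPM in the same larva with the next at 26.6 CPM. Aqu2.1.03934_001 stood at 1.63 CPM in day-night replicate 5 with the next larva at 9.74 CPM. Aqu2.1.37300_001 stood at 115 CPM in constant-dark replicate 4 with the next larva at 38.3 CPM, and Aqu2.1.03834_001 at 41.6 CPM in constant-dark replicate 7 with the next at 16.2 CPM.

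At 1 hpe, Aqu2.1.03834_001 stood at 51.6 CPM in constant-dark replicate 4 with the next larva at 23.3 CPM. Aqu2.1.23732_001 stood at 43.0 CPM in constant-dark replicate 1 with the next larva at 31.9 CPM, and Aqu2.1.41799_001 at 1593 CPM in day-night replicate 4 with the next at 884 CPM.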

How the results depend on the processing

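The rule gave 76 members, 135 with TMM-scaled CPM, 38 with A at or below -1, 147 with A at or below -0.6 and 120 with no minimum level, and 70 to 84 with 1 larva left out. Without the 8 larvae apart on the second component it gave 84, of which 58 were members. Members called lower at 9 than at 1 hpe numbered 61 in constant light (53 to 60 with 1 larva left out, and 20 without the 8 larvae, which leaves 3 constant-light larvae at 9 hpe), 70 in constant dark (68 to 72) and 72 in day-night (70 to 73). With the cluster term they numbered 47, 54 and 65 in that order of regimes, and in constant light 48 with no filter. Over all tested models, in either direction, the calls were 867, 2838 and 3127 of 14188, and 437, 976 and 2022 with the cluster term. At 1 hpe the 4 members that differed between constant light and day-night (3 to 5) became 7 with DESeq2 and 0 with the cluster term, and the 0 between constant dark and day-night became 1 with DESeq2. At 9 hpe the 21 between constant light and day-night (15 to 24) became 12 with limma voom and 12 without the 8 larvae. With no filter, with only these groups and with the cluster term 14 were called. The 13 between constant light and constant dark (11 to 22) became 8 with limma voom, 3 with only these groups, 6 with the cluster term and 7 without the 8 larvae. The 1 between constant dark and day-night (0 to 1) became 2 with DESeq2 and 0 with no filter, limma voom, the cluster term and without the 8 larvae. Without day-night replicate 6 at 9 hpe the 1 called was a different member, higher in constant dark. Not every setting is listed for each count, and settings left out also moved some of the counts. For comparisons of constant light, the calls over all tested models under several of these settings are given above. The causes were not tested. No alternative reversed a named model's direction. After removing group means, at most 1 of 7 pairs of same-numbered larvae in a comparison correlated above 0.1, and the highest value was 0.239. Such values cannot show whether equal numbers mark a shared parent or batch, neither of which is labelled. With a replicate block the counts were 62, 71 and 71 members for the age change in constant light, constant dark and day-night, 4, 0 and 0 at 1 hpe, and 18, 1 and 13 at 9 hpe for constant light against day-night, constant dark against day-night and constant light against constant dark.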
